A study of Schmidtea mediterranea with 24 samples.

Results

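The early phase of normal head-end regeneration was followed in tail fragments of the planarian flatworm Schmidtea mediterranea by comparing RNA at 2 days after amputation with RNA at 0 h. All contig IDs with enough counts in the 8 control RNAi libraries of these times were included, which left 17875 of the 28069 IDs in the count table. Another 524 IDs had 0 counts in all 8 libraries, and 9670 had counts too low to be tested. Each ID is an assembled transcript contig of the dd_Smed_v6 set. The tables used here do not pair IDs with gene names, so no gene, pathway or cell type is named, and the labelled tissue could not be checked against marker genes.

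All animals were of the asexual clonal line CIW4. Control animals were fed double-stranded RNA against egfp, a jellyfish reporter gene that planarians lack, in 6 feedings of 2 µg, and were starved before amputation. The control groups thus carry the feeding, the starvation and the exposure to double-stranded RNA at both times. They differ from each other in the time since the cut, and may differ in the time since the last feeding and dose. No group of the series was left uncut, so these times cannot be told apart. Each of the 4 replicates per time pooled the anterior end, which faces the wound, of 10 tail fragments. The comparison groups with egr-2 RNAi were fed double-stranded RNA against the planarian gene egr-2 and sampled in the same way at 0 h, 2 days and 4 days, as was a control group at 4 days. The series holds 24 libraries in 6 groups.

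Planarians regrow missing body parts from neoblasts, the dividing cells that give rise to all adult cell types. After a cut, cells near the wound first switch on wound-response genes, neoblasts divide, and their descendants gather under the wound epidermis in a blastema, where new tissue takes shape. Muscle cells express positional signals, among them Wnt pathway genes, that set which end forms a head. RNA from a bulk piece of tissue mixes all these cells, so fewer cells of a type and less RNA per cell cannot be told apart. The anterior end of a fragment at 2 days also includes newly formed tissue that the 0 h sample cannot contain.

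Total counts were 13449251 to 24500726 per library at 0 h and 17658036 to 23924158 at 2 days. The 8 libraries separated by time along the first principal component of log2 abundance, which held 81.9% of the variance, with 0 h scores from -47.3 to -42.9 and 2 day scores from 42.8 to 47.8. Spearman's rho across IDs was 0.992 to 0.995 for the 12 pairs of libraries of the same time and 0.955 to 0.960 for the 16 pairs of different times. Abundance is given as CPM, the count of an ID scaled to a common library size. For the 9883 IDs that averaged 10 CPM or more, the median SD between replicates was 0.081 on the log2 scale at 0 h and 0.070 at 2 days. The labels call the libraries of a group biological replicates but do not say whether the pools came from separate cultures. The p-values thus measure the spread between these pools, part of which may be technical.

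Among the comparison libraries, egr-2 RNAi 0 h replicate 1 stood apart. Each library was compared with its group's mean over the same 9883 IDs, and the SD of these log2 differences was 0.25 for this library. The other 3 libraries of the group had values of 0.12 to 0.14, and the 8 control libraries of 0 h and 2 days had 0.080 to 0.12. The control comparison of the times does not use it, and the shares, counts, medians and means below that rest on it are given with and without it, unless they are said to include it.

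A majority of the tested transcripts differed between 0 h and 2 days. With edgeR's quasi-likelihood test and Benjamini-Hochberg adjustment, 9953 of 17875 IDs (55.7%) had an adjusted p below 0.05, and 10731 had an unadjusted p below 0.05. Of the called IDs, 4957 were higher at 2 days (27.7% of those tested) and 4996 were lower (27.9%). The values of the 4 libraries of one time lay wholly above those of the other for 4516 IDs that were higher at 2 days (25.3%) and 4476 that were lower (25.0%). Of the called IDs, 88.0% of those higher and 86.5% of those lower showed this separation.

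Most of these changes were small. The median change of the called IDs was 1.37-fold for those higher and 1.43-fold for those lower. Among the IDs called higher, 1036 changed by less than 1.2-fold, 2150 by 1.2 to 1.5-fold, 1115 by 1.5 to 2-fold and 494 by 2 to 4-fold. A further 96 rose by 4 to 8-fold and 66 by 8-fold or more. Among the IDs called lower, the same steps held 909, 1925, 1156 and 694 IDs. With the trimmed-mean scaling used here the falls reached further than the rises, with 143 IDs lower by 4 to 8-fold and 169 by 8-fold or more. These sizes are fitted values, with no test of each step.

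A stricter test asked whether the change itself was larger than 2-fold. It was passed by 314 IDs that were higher at 2 days (1.76% of those tested) and by 582 that were lower (3.26%). With scaling by total counts alone the balance turned, with 526 rises and 417 falls beyond 2-fold. The 582 IDs that fell were also more abundant than the 314 that rose. Their median abundance over the 8 libraries was 26.2 CPM, against 9.14 CPM for the IDs that rose and 13.1 CPM for all tested IDs. Median contig length was 1130 bases for the falls and 1056 bases for the rises, against 1276 bases for all tested IDs.

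The direction of a small change depended on the scaling of the libraries. The trimmed-mean (TMM) factors used for the test averaged 0.916 ± 0.012 at 0 h and 1.09 ± 0.0051 at 2 days (SD, n = 4). With scaling by total counts alone, the median log2 change of all tested IDs moved from -0.0017 to 0.25, and 76.4% of calls were higher at 2 days, against 49.8% with TMM. This scaling moves all IDs upward together, so among called IDs only those called lower could change sign. Of these 4996, 845 did, 131 of them with an adjusted p below 0.05. Of the 582 falls beyond 2-fold, 417 still passed the test against 2-fold. Changes are given below relative to the TMM scaling.

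**Figure D1:**
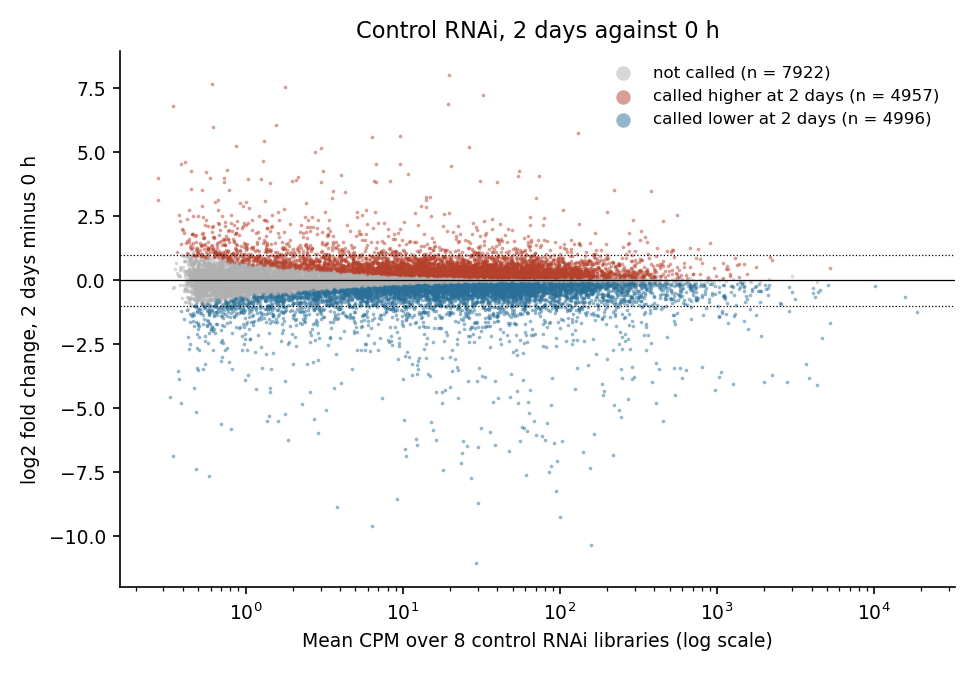
Change of each of the 17875 tested IDs from 0 h to 2 days in control RNAi fragments (log2 fold change, vertical axis) against its mean abundance (CPM, log scale, horizontal axis). Red and blue points are the 4957 IDs called higher and the 4996 called lower, grey points were not called, and dotted lines mark 2-fold; with TMM scaling more falls than rises exceed 2-fold (582 against 314), and falls reach the most abundant IDs.

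The IDs called lower held most of the counts at 0 h and a smaller part at 2 days. Their share was 60.4%, 60.8%, 60.4% and 60.8% of the counts in 0 h replicates 1 to 4. At 2 days they held 43.2%, 43.1%, 44.0% and 43.1%. The IDs called higher held 20.9%, 20.7%, 21.0% and 20.7% at 0 h and 34.5%, 34.7%, 34.0% and 34.8% at 2 days. In both sets the ranges of the times lie far apart compared with the spread within a time. The sets were chosen on these libraries, so the shares describe the change and carry no test.

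Beyond 2-fold the contrast between the directions was wider. The 582 IDs that fell held 15.9%, 16.1%, 16.1% and 16.5% of the counts at 0 h and 4.49%, 4.42%, 4.89% and 4.43% at 2 days. The 314 IDs that rose went from 0.759%, 0.721%, 0.719% and 0.725% to 2.68%, 2.73%, 2.72% and 2.82%. With TMM scaling the loss was also concentrated in few IDs. Summed over the IDs called lower, 74 IDs made up 50% of the fall in CPM and the 10 largest losses made up 25.0%. Summed over the IDs called higher, 278 IDs made up 50% of the gain and the 10 largest gains made up 10.5%. The sets and these sums rest on TMM scaling, and the sums are not given for total counts alone.

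**Figure D2:**
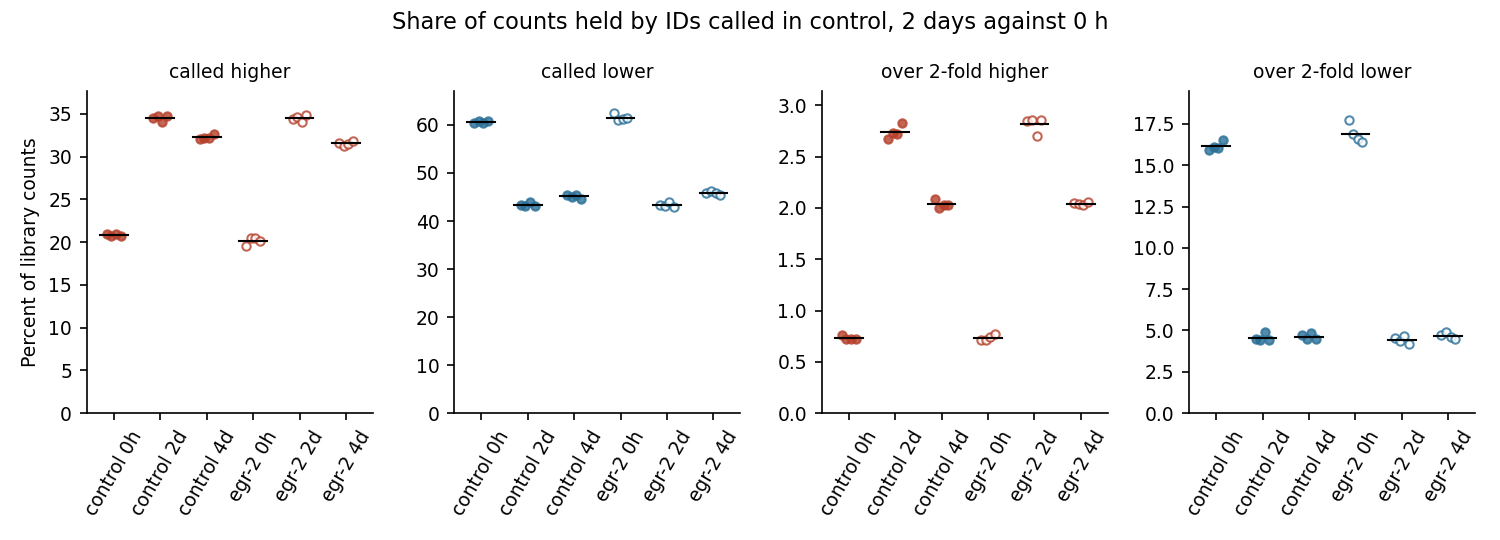
Percent of each library's counts held by the IDs called in the control comparison of 2 days with 0 h, in 4 sets (panels), for control RNAi (filled points) and egr-2 RNAi (open points) at 0 h, 2 days and 4 days. Each point is a library and each line a mean of 4; the IDs called lower hold about 60.6% of control counts at 0 h and 43.4% at 2 days, and the egr-2 RNAi libraries, which were not used to choose the sets, stand at 61.5% and 43.3% (61.3% at 0 h without replicate 1).

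The most abundant transcripts lost ground as a class. The 10 most abundant IDs of each library held 9.77%, 9.53%, 9.72% and 9.42% of the counts at 0 h and 6.83%, 6.78%, 6.83% and 6.87% at 2 days. The difference of -2.78 percentage points had an exact two-sided permutation p of 0.0286, the smallest that 4 against 4 libraries allow. The 100 most abundant IDs held 27.3% ± 0.28 and 21.2% ± 0.20 (SD, n = 4), with the same exact p. Of the 10 most abundant IDs at 0 h, 4 were also among the 10 most abundant at 2 days, and all 10 were called lower with TMM scaling. With total counts alone 8 of these 10 were called lower and 1 higher. The lists of 100 shared 69 IDs. Of the 100 at 0 h, 86 were called lower and 6 higher, or 62 lower and 20 higher with total counts alone. Choosing IDs by their 0 h level favours falls, so these counts are a description and carry no test. In the lists chosen at 2 days, 8 of 10 IDs were called lower and 1 higher. Of the 100 at 2 days, 58 were called lower and 27 higher.

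Calls were more frequent among abundant IDs, and the balance of directions changed with abundance. Of the 2170 IDs with a mean below 1 CPM, 11.0% were called higher and 10.4% lower. Of the 5822 IDs from 1 to 10 CPM these shares were 20.6% and 21.2%. Of the 7910 IDs from 10 to 100 CPM they were 36.5% and 32.9%. At 100 to 1000 CPM, 32.9% of 1861 IDs were called higher and 45.6% lower, and at 1000 CPM or more, 15.2% of 112 IDs were called higher and 75.0% lower. The precision rose along the same scale, since the median standard error of the log2 fold change was 0.35 below 1 CPM and 0.042 at 1000 CPM or more. The median log2 fold change was 0.0097 in the lowest of these classes and -0.40 in the highest. With total counts alone the medians were 0.26 and -0.15, so the most abundant class stood below the others under both scalings. The balance of calls turned with total counts alone at 100 to 1000 CPM, where 1080 IDs were called higher and 481 lower, while at 1000 CPM or more 34 were called higher and 58 lower.

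The balance of directions also differed with contig length. Of the 1554 IDs shorter than 500 bases, 16.02% were called higher and 22.5% lower. Of the 776 IDs of 4000 bases or more, 38.9% were called higher and 30.8% lower. Among the IDs of 10 to 100 CPM the share called in either direction was 69.7% below 500 bases and 69.1% at 4000 bases or more. Within that range of abundance, 28.1% of the shortest contigs were called higher and 41.6% lower, against 38.6% and 30.5% of the longest. With total counts alone the balance of the shortest contigs turned, to 138 higher and 75 lower among the 274 of that abundance and to 476 and 201 among all 1554, and the longest of that abundance had 307 higher and 61 lower. Falls beyond 2-fold were found for 11.3% of the 274 shortest contigs of that abundance and for 7 of the 466 longest. Rises beyond 2-fold were found for 11 and 5 of them. Among the IDs of 1 to 10 CPM the balance did not change regularly with length. There 16.2% of contigs below 500 bases were called higher and 21.2% lower. From 500 to 1000 bases the shares were 22.4% and 18.8%, and from 1000 to 2000 bases 20.1% and 23.1%. Of the 27 longest contigs of that lower abundance, 7 were called higher and 7 lower. Whether length affects the counting of a contig was not tested.

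**Figure D3:**
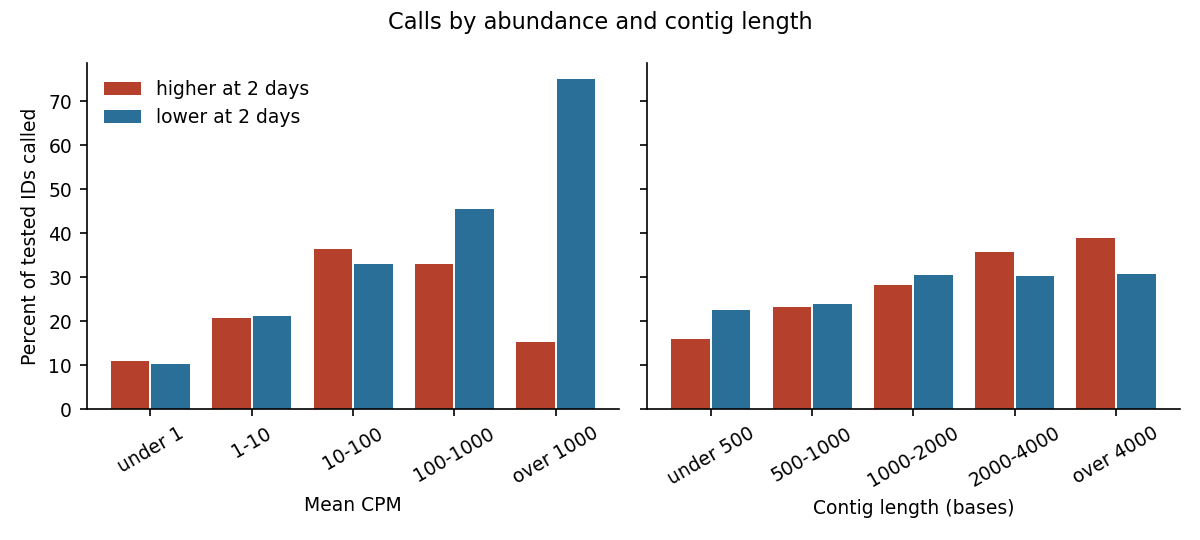
Percent of tested IDs called higher (red) and lower (blue) at 2 days, by mean CPM over the 8 libraries (left) and by contig length in bases (right). The share called lower rises from 10.4% below 1 CPM to 75.0% at 1000 CPM or more, and the share called higher is largest, 36.5%, at 10 to 100 CPM.

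Given the TMM scaling, the data bound the change closely for part of the transcripts. Of the 7922 IDs that were not called, 2830 had a mean of at least 10 CPM. The 95% interval of the fold change lay wholly within 1.2-fold in either direction for 2096 of these 2830 IDs (74.1%), and within 1.5-fold for 2825. Of the 5092 uncalled IDs below 10 CPM, the interval lay within 1.2-fold for 88 and within 2-fold for 3840. For the other 1252 of them a change of 2-fold could not be bounded at this depth. The intervals were not adjusted for the number of IDs. They also leave out the choice of scaling. With total counts alone the median log2 change of all tested IDs was 0.25, against -0.0017 with TMM, a shift nearly as wide as the 1.2-fold bound.

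The number of transcripts detected overlapped between the times. The IDs at 1 CPM or more numbered 15572 to 15701 per library at 0 h and 15575 to 15742 at 2 days. The difference in means of 12.8 IDs had an exact two-sided permutation p of 0.69. With total counts alone the difference was 467 IDs, with an exact p of 0.0286. Only 2 tested IDs had 0 counts in all 4 libraries at 0 h, with 61 and 111 counts summed over the 2 day libraries. At 2 days 3 tested IDs had 0 counts, with 52 to 90 counts summed over the 0 h libraries. These were rare transcripts, with no mean above 1.22 CPM.

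At the extreme of the falls stood a set of abundant transcripts that dropped to low levels at 2 days. There were 121 IDs averaging 10 CPM or more that were called lower by 8-fold or more, against 18 called higher by as much, and each of the 139 also passed the test against 2-fold. This set was delimited after the values were seen and is given as a description. An ID can reach a mean of 10 CPM through the time at which it is high. Without that limit, 169 IDs were called lower by 8-fold or more and 66 higher, a less uneven balance. The median level of the 121 IDs was 121 CPM at 0 h and 3.30 CPM at 2 days. Together they held 6.13%, 5.90%, 6.27% and 6.70% of the counts at 0 h and 0.443%, 0.523%, 0.633% and 0.371% at 2 days. Their contigs had a median of 840 bases, against 1656 bases for all 9883 IDs averaging 10 CPM or more, which were not matched to them in abundance. Their replicates also spread more, with a median SD of 0.22 on the log2 scale at 0 h and 0.34 at 2 days. For the 9883 IDs it was 0.081 and 0.070, at a median of 36.6 CPM at 2 days. Low counts widen the log2 spread, so the 2 day values are not of like precision.

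The 121 IDs also fell in libraries that had no part in choosing them. In egr-2 RNAi fragments all 121 were lower at 2 days than at 0 h, by -9.91 to -2.77 on the log2 scale, with a median of -4.88 against -4.38 in control. Without egr-2 RNAi 0 h replicate 1, which stood apart from its group, the median was -4.83, and all 121 were called with or without it. Under egr-2 RNAi they held 5.85% ± 0.50 of the counts at 0 h, 0.342% ± 0.046 at 2 days and 0.114% ± 0.013 at 4 days (SD, n = 4), and the 0 h share was 5.67% ± 0.43 (SD, n = 3) without that replicate. In control at 4 days they held 0.137% ± 0.019 (SD, n = 4). The median level of the 121 IDs did not follow this summed share, since from 2 to 4 days it went from 3.39 to 4.04 CPM in control and from 2.40 to 3.30 CPM in egr-2 RNAi libraries, with all 24 libraries scaled together. The difference between these times was not tested.

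The 18 IDs with the largest rises were a smaller set at lower levels. Their median level was 3.49 CPM at 0 h and 60.8 CPM at 2 days in control. They too were short, with a median of 698 bases. Their replicates also spread widely, with a median SD of 0.29 on the log2 scale at 0 h and 0.20 at 2 days. They held 0.0144% ± 0.0011, 0.250% ± 0.022 and 0.107% ± 0.0052 (SD, n = 4) of the control counts at 0 h, 2 days and 4 days. In egr-2 RNAi libraries, which were not used to choose them, the shares were 0.0175% ± 0.0025, 0.277% ± 0.013 and 0.120% ± 0.0080 (SD, n = 4), the first being 0.0182% ± 0.0024 (SD, n = 3) without replicate 1. All 18 were higher at 2 days than at 0 h in egr-2 RNAi fragments, with a median log2 change of 3.77 (3.82 without that replicate), and all 18 were called with or without that replicate.

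A rule named 4 IDs from the 148 rises and 388 falls that passed the test against 2-fold, averaged 10 CPM or more, had at least 10 counts on average at each time and showed no overlap between the times. In each direction it took the largest log2 fold change and then the largest change in mean CPM. What proteins the 4 contigs encode is not known from the files.

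The largest rise under the rule was that of dd_Smed_v6_1202_0_1, a contig of 523 bases. Its level in 0 h replicates 1 to 4 was 5.86, 3.35, 5.46 and 5.05 CPM. At 2 days it was 164, 286, 283 and 308 CPM, so the lowest 2 day library stood far above the highest 0 h library. The log2 fold change was 5.75 (SE 0.20, adjusted p of 3.5e-13), a 53.6-fold rise, and 8 of all tested IDs had a larger fitted rise but did not meet the rule. In control libraries at 4 days it stood at 41.8, 24.5, 64.4 and 40.4 CPM. These values lie between those of 0 h and 2 days without overlap. Its mean under egr-2 RNAi was 14.4 ± 4.51, 392 ± 60.9 and 169 ± 40.9 CPM (SD, n = 4) at 0 h, 2 days and 4 days. These means and those of the other 3 named IDs include egr-2 RNAi 0 h replicate 1. The rise from 0 h to 2 days was 0.96 smaller on the log2 scale in egr-2 RNAi than in control (difference of -0.96, SE 0.31), which did not pass the test of the difference (adjusted p of 0.43). Without that replicate the difference was -1.12 (SE 0.28, adjusted p of 0.13).

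The largest gain in CPM under the rule was that of dd_Smed_v6_427_0_1, a contig of 1186 bases. It had 478, 530, 466 and 524 CPM at 0 h and 1228, 1269, 1485 and 1468 CPM at 2 days, with no overlap. The log2 fold change was 1.46 (SE 0.063, adjusted p of 6.3e-12). Its mean rose by 845 CPM, and 3 IDs called higher gained more, up to 1792 CPM, none of which passed the test against 2-fold. Its control level at 4 days was 853, 675, 803 and 676 CPM, again between the levels of the earlier times. Under egr-2 RNAi it had means of 523 ± 21.7, 1331 ± 93.1 and 1103 ± 78.2 CPM (SD, n = 4) at these times. Per kilobase of contig, its mean control level at 2 days was 1149 CPM, against 498 CPM for dd_Smed_v6_1202_0_1.

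The largest fall under the rule was that of dd_Smed_v6_367_0_1, a contig of 480 bases and one of the 121 IDs described above. It had 122, 190, 185 and 273 CPM in 0 h replicates 1 to 4, and 0.48, 0.99, 0.48 and 0.55 CPM at 2 days. The 2 day values rest on 9, 22, 11 and 14 counts. The log2 fold change was -8.25 (SE 0.28, adjusted p of 3.2e-13), and 7 of all tested IDs had a larger fitted fall but did not meet the rule. By 4 days the control level was 11.0, 6.96, 9.43 and 5.91 CPM, above every 2 day library and below every 0 h library. In egr-2 RNAi fragments the means were 157 ± 29.0, 0.51 ± 0.24 and 5.84 ± 1.00 CPM at the 3 times (SD, n = 4).

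The largest loss in CPM was that of dd_Smed_v6_3_0_1, a contig of 1634 bases. It had 25862, 29044, 26054 and 26902 CPM at 0 h and 11471, 10926, 11612 and 11863 CPM at 2 days. It held 2.40% ± 0.098 of all counts at 0 h and 1.22% ± 0.042 at 2 days (SD, n = 4). The log2 fold change was -1.23 (SE 0.036, adjusted p of 7.9e-14). With total counts alone it was -0.97, which does not pass the test against 2-fold. At 4 days its control level was 12484, 10947, 12507 and 11562 CPM, a range that overlaps that of 2 days. Under egr-2 RNAi it had means of 31105 ± 637 CPM (SD, n = 4) at 0 h and 11943 ± 486 CPM (SD, n = 4) at 2 days. Its mean control level at 0 h was 16503 CPM per kilobase, against 401 CPM per kilobase for dd_Smed_v6_367_0_1.

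**Figure D4:**
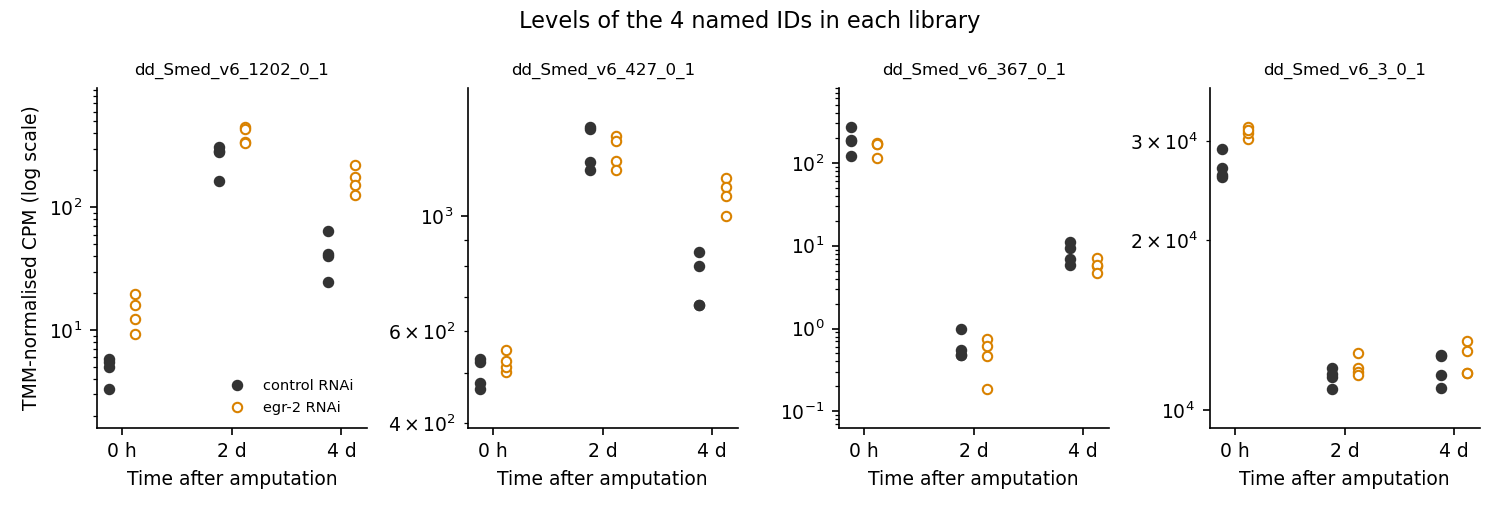
TMM-normalised CPM (log scale, with a separate range in each panel) of the 4 named IDs in each library at 0 h, 2 days and 4 days after amputation, for control RNAi (filled) and egr-2 RNAi (open); each point is 1 library. The first pair of IDs rises at 2 days and the second pair falls, and in no panel do the control values of 0 h and 2 days overlap.

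The changes were then read in the egr-2 RNAi libraries of the same times, which share no library with the control comparison. In egr-2 RNAi fragments 24.4% of the same IDs were called higher at 2 days than at 0 h and 26.2% were called lower, or 25.3% and 26.8% without egr-2 RNAi 0 h replicate 1. Of the 4957 IDs called higher in control, 4849 (97.8%) were higher at 2 days in egr-2 RNAi fragments, and 3824 were also called there. Of the 4996 called lower, 4888 (97.8%) were lower and 4003 were also called. Without that replicate the shares with the same sign were 98.1% and 98.3%, and 3941 and 4103 IDs were also called. Called in opposite directions were 8 IDs, 7 of them higher in control, and without the replicate 6 of those called higher and 2 of those called lower. Of the 7922 IDs not called in control, 69.8% had the same sign in both conditions, and 71.1% without that replicate.

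The smallest changes were read in the same way. Of the IDs called higher by less than 1.2-fold, 95.3% had the same sign in egr-2 RNAi fragments, and of those called lower by as little, 95.8%. Without the replicate these shares were 95.8% and 96.8%. Of the 314 rises beyond 2-fold all 314 had the same sign and were called there. Of the 582 falls all had the same sign and 579 were called. Without that replicate 313 of the rises and 579 of the falls were called. The median log2 change of the IDs called higher was 0.45 in control and 0.42 in egr-2 RNAi fragments, and that of the IDs called lower was -0.51 and -0.52. In egr-2 RNAi fragments without the replicate these medians were 0.42 and -0.51. Both fits used TMM scaling, so a shared sign does not settle the direction of a small fall. With total counts alone, 845 of the 4996 IDs called lower in control changed sign.

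At 4 days 4287 of the tested IDs (24%) were called higher and 25.8% lower than at 0 h in egr-2 RNAi fragments, or 4433 IDs and 26.04% without the replicate. From 0 h to 4 days, 87.5% of the IDs called higher in control at 2 days and 89.8% of those called lower had the control direction, or 88.7% and 90.5% without egr-2 RNAi 0 h replicate 1. Their median log2 changes were 0.29 and -0.44, and 0.30 and -0.43 without it. Beyond 2-fold the median of the rises was 1.86 at 2 days and 1.45 at 4 days in egr-2 RNAi fragments, and that of the falls was -2.11 and -1.86. Without the replicate the rises had 1.84 and 1.43 and the falls -2.12 and -1.81. The 2 day and 4 day changes share the 0 h libraries, so these medians stand side by side with no test between them. In control libraries the median level of the 314 IDs was 3.04 CPM at 0 h, 14.5 CPM at 2 days and 11.2 CPM at 4 days. That of the 582 IDs was 43.4, 7.02 and 8.08 CPM.

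The test of the difference between the conditions found few IDs. The change from 0 h to 2 days differed between egr-2 RNAi and control for 12 of 17875 IDs (0.0671%) by edgeR's quasi-likelihood test at an adjusted p below 0.05, and 1334 had an unadjusted p below 0.05. The change was lower in egr-2 RNAi fragments for 10 of the 12 and higher for 2. The differences were 0.41 to 1.57 on the log2 scale in absolute size. Of the 12 IDs, 11 were called in the control comparison, 7 of them higher at 2 days, and for each of these 7 the change was lower in egr-2 RNAi fragments. The difference and the control calls share the control libraries, which favours this direction, so no conclusion is drawn from the 7 IDs. None of the 4 named IDs was among them.

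That count rested on single libraries. Leaving out control replicate 1 at 0 h gave 6 IDs, and leaving out control replicates 2, 3 or 4 at 2 days gave 3, 5 or 2. Leaving out replicate 1 of the egr-2 RNAi group at 0 h gave 35 IDs and leaving out its replicate 4 gave 4. With replicate 2 or 4 of the 2 day egr-2 RNAi group left out, 3 or 7 IDs were called. A likelihood ratio test called 50 IDs, the 12 among them.

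**Figure D5:**
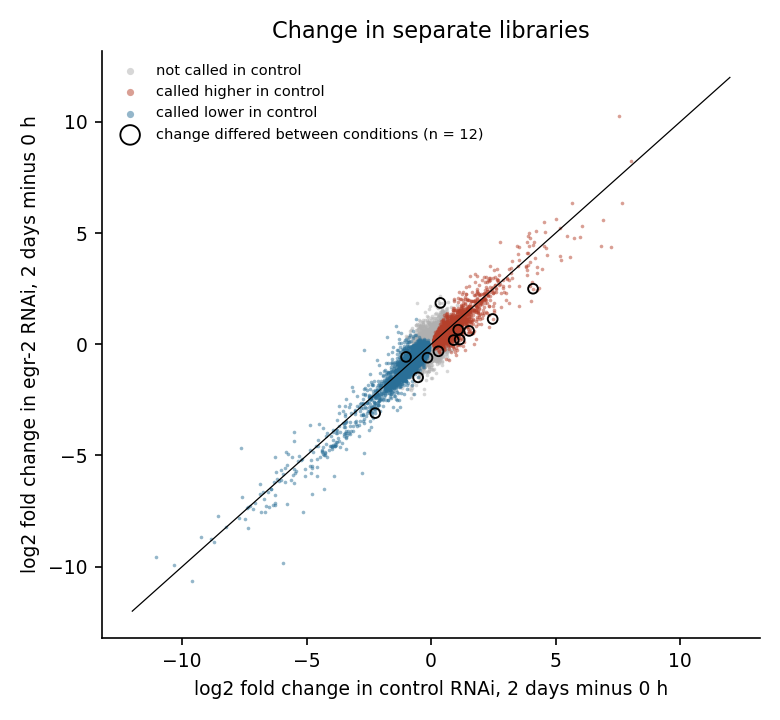
Change from 0 h to 2 days of each tested ID in egr-2 RNAi fragments (log2 fold change, vertical axis) against its change in control RNAi fragments (log2 fold change, horizontal axis), in separate libraries. Red and blue points were called higher or lower in control, circles mark the 12 IDs whose change differed between the conditions, and the line marks equal change; 97.8% of the red and 97.8% of the blue points have the same sign on both axes.

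The authors' deposited table lists 16812 IDs and calls 9396 of them between control 2 days and 0 h at a false discovery rate below 0.05, 4826 higher and 4570 lower. Of these, 9147 were also called here, all in the same direction. For dd_Smed_v6_1202_0_1 and dd_Smed_v6_367_0_1 the authors' deposited table gives log2 fold changes of 5.74 and -8.24.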

How the data were processed

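RNA from the anterior end of tail fragments was sequenced in 24 libraries, of which the 4 control RNAi libraries at 0 h and the 4 at 2 days were compared. The authors deposited raw read counts per contig, with contig lengths. Per the labels' protocols about 500 ng of total RNA went into each NEBNext Ultra library. The submitters' processing notes name FastQC 0.11.5, Bowtie2 2.3.1 and featureCounts with Subread 1.6.3, and the design text names BBDuk and edgeR. Whether counting used strand is not given in the sources used here. A second deposited table gives the authors' own comparisons, with a log2 fold change, a mean log2 CPM and an adjusted p-value for each ID. No column of per-sample values was left without a sample.

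From the deposited counts, IDs were kept by filterByExpr on the 8 libraries (minimum count 10, minimum total 15). They held 99.85% to 99.88% of the counts of each of the 8 libraries. TMM factors, a group-means model and the quasi-likelihood test of edgeR 4.0.16 (limma 3.58.1, R 4.3.3) were used, with Benjamini-Hochberg adjustment over all IDs tested at 0.05 and glmTreat for changes beyond 2-fold. Standard errors were derived from the F statistic. The procedure was also run on simulated counts in which few IDs changed, as many up as down, so the run could not test the scaling. CPM levels of named IDs use TMM factors over all 24 libraries, and gains in mean CPM use those of the 8 libraries. The egr-2 RNAi changes came from a fit of those 12 libraries, and the difference between conditions from a fit of 16. Of the tested IDs, 305 share a component number with another contig, so reads may have been divided between them; none of the 4 named IDs does. The 12 pairs of replicates differed by more than counting noise (chi-square per degree of freedom 2.53 to 11.9).

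The rule for naming IDs is stated with the 4 IDs. The comparison, the rule and the alternatives were chosen with earlier results of these data known. Alternatives were RLE factors, total counts, no filter, a filter of 1 CPM in 4 libraries, DESeq2 1.42.0, a likelihood ratio test, a fit of all 24 libraries, the replicate number as a block, and leaving out each library. Marker lists had been planned for the case that names were given and were not used.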

Additional observations from a re-analysis of the deposited data

Results flagged for a closer look

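In 6 of 48 sets of 4 values examined, 1 library lay far from the other 3, where chance gives about 1 in 20 for a single set. The sets share libraries and IDs, so no excess over chance can be read from this count. The level of dd_Smed_v6_367_0_1 was 0.99 CPM in control 2 day replicate 2, against 0.48 to 0.55 CPM in the others, and 114 CPM in egr-2 RNAi 0 h replicate 4, against 168 to 176 CPM. The IDs called lower held 44.0% of the counts in control 2 day replicate 3, and the IDs lower beyond 2-fold held 4.89% there, both the highest of their group. The IDs higher beyond 2-fold held 0.759% of the counts in control 0 h replicate 1. The 100 most abundant IDs held 26.9% in control 0 h replicate 4, against 27.5% in each of the others. The change from 0 h to 2 days differed between the RNAi conditions for 12 IDs by the test of the difference.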

How the results depend on the processing

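The count of 9953 calls was 9245 to 9656 without single libraries, and 9367 to 11194 under the other alternatives. Total counts alone gave 8550 calls higher and 2644 lower, and 526 rises and 417 falls beyond 2-fold, against 314 and 582. Without single libraries the calls higher were 4671 to 4840, those lower 4574 to 4828, the rises beyond 2-fold 298 to 311 and the falls 548 to 590. The adjusted p of each of the 4 named IDs stayed below 0.05 under all 16 alternatives, but with total counts alone dd_Smed_v6_3_0_1, at -0.97 on the log2 scale, did not pass the test against 2-fold.

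The 12 IDs with a difference between conditions became 2 to 35 without single libraries and 50 with the likelihood ratio test. The difference in the share of the 10 most abundant IDs was -2.84 to -2.73 points without single libraries, where the smallest p that 3 against 4 libraries allow is 0.0571. The difference in IDs at 1 CPM or more was -13.7 to 42.4 without single libraries, 467 with total counts alone, and -47.2 with a threshold of 10 CPM (exact permutation p of 0.11); the cause was not tested. The share of calls with the same sign in egr-2 RNAi fragments was 98.1% (higher) and 98.3% (lower) without egr-2 RNAi 0 h replicate 1, an alternative added after seeing the data.

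The replicate numbers did not pair the libraries: the deviations of same-numbered libraries correlated at -0.080 to 0.071, and 2 of 8 libraries correlated best with their own number. With the replicate number as a block, 9804 IDs were called, 9658 of them among the 9953, and the difference between conditions was called for 16.

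Precision below 1 CPM limits what can be said of rare transcripts, with a median standard error of 0.35 on the log2 scale.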
